A study of Oryzias latipes with 27 samples.

Results

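The genes described here write, read and erase N6-methyladenosine (m6A) on mRNA. They were chosen by symbol as mettl3 and ythdf2, together with mettl14, wtap, ythdf1, ythdf3, ythdc1, ythdc2, alkbh5 and igf2bp3 where the tables list that name. Of these 10 symbols, 9 were found among 26099 genes, and ythdf1 was not analysed here. The RNA-seq libraries came from the gonads of medaka (Oryzias latipes), a fish in which XY animals become males through the Y-linked gene DMY. MT_Fe_Ov were ovaries of XY females that carry a TALEN mutation of DMY in an inherited line, WT_Fe_Ov were ovaries of wild-type females and WT_Ma_Te were testes of wild-type males. Fish were taken 10, 30 or 120 days after hatching (the stages D10, D30 and D120), which gave 9 groups of 3 libraries labelled as biological replicates. The D10 libraries were made from gonadal primordia with adjacent tissue, without head and tail. DMY was not analysed here, so the genotypes rest on the labels.

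The m6A mark is placed on nascent mRNA by a complex in which METTL3 is the catalytic subunit, METTL14 holds the RNA and WTAP brings the pair to its targets. ALKBH5 and FTO remove the mark. Among the readers, YTHDF2 binds marked mRNA in the cytoplasm and recruits the CCR4-NOT deadenylase, YTHDC1 acts in the nucleus, and IGF2BP3 binds mRNA and favours its stability. YTHDC2 is an RNA helicase that, in the mouse, works with MEIOC to take germ cells through meiosis. In mouse and zebrafish oocytes and early embryos, YTHDF2 is known for clearing maternal mRNA.

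In the annotation of ASM223467v1, the build used by the authors, mettl3 lies on chromosome 18 from 17630858 to 17640047 with an exon length of 2135 bases, and ythdf2 on chromosome 22 from 9176983 to 9185036 with 3402 bases. The other writers are mettl14 on chromosome 1 (14174760 to 14186490) and wtap on chromosome 24 (7321951 to 7328250), and the eraser alkbh5 is on chromosome 1 (22395208 to 22399182). The remaining readers are ythdf3 on chromosome 20 (17318129 to 17325865), ythdc1 on chromosome 12 (81858 to 89727), ythdc2 on chromosome 24 (18400501 to 18542582) and igf2bp3 on chromosome 11 (10792576 to 10812329). The mettl3 gene overlaps ttc5 by 1198 bases and ythdc1 overlaps LOC110014262 by 1122 bases. Reads were counted without strand, so the counts of mettl3 and ythdc1 are uncertain in these stretches. The ttc5 gene itself averaged 18.5 FPKM in MT_Fe_Ov, 18.4 in WT_Fe_Ov and 30.5 in WT_Ma_Te at D30.

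Total counts ranged from 5551651 to 17586392 per library. By the authors' numbers of read pairs and bases, the D30 WT_Ma_Te libraries had more pairs and fewer bases per pair than all others. Their alignment rate was below that of the D30 ovaries. In comparisons with the D30 testis, sequencing therefore cannot be told apart from gonad or stage. The D10 libraries held much RNA of other tissues: 3 muscle genes (of 13 listed; acta1, mylpf and myod1) summed to 8601 to 21416 CPM (counts scaled to a common library total) there and to at most 28.8 CPM in the 18 later libraries. The summed level of 5 oocyte genes (of 6 listed, among them figla and zar1) was 1.10 to 15.4 CPM in the 9 D10 libraries, 2127 to 2536 CPM in the 12 later ovary libraries and 22.0 to 122 CPM in the 6 later testis libraries. The ovary and testis labels at D30 and D120 therefore match these markers, and at D10 the oocyte genes were low in all groups. Within D10 they summed to 5.24 to 6.42 CPM in MT_Fe_Ov, 3.56 to 15.4 CPM in WT_Fe_Ov and 1.10 to 2.52 CPM in WT_Ma_Te. Every D10 ovary library was thus above every D10 testis library in this sum. The summed testis soma genes (3 found of 5 listed) overlapped between the D10 groups. The D10 testis libraries differed most among themselves, and each result that leaving out one of them changes is given with and without it. Whether a difference in these bulk samples stems from fewer cells of a type or from less RNA per cell cannot be told apart. At D30 the pancreas gene cpb1 (1 found of 9 listed) was uneven between the groups. It had 0.395 to 3.73 CPM in MT_Fe_Ov, 114 to 198 CPM in WT_Fe_Ov and 524 to 626 CPM in WT_Ma_Te. Liver genes (3 found of 8 listed) summed to at most 3.75 CPM in the 18 later libraries. The part of adjacent tissue and of cell composition in the results was not tested.

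Levels are given as FPKM, which the authors scaled by the total count of the library. Differences were tested with edgeR's quasi-likelihood test on the counts after TMM scaling, and a gene is called where the Benjamini-Hochberg adjusted p over all genes is at most 0.05 and the absolute log2 fold change at least 1. The scalings differ in the ovary to testis comparisons. With library totals in place of TMM, the log2 fold change of a gene shifts, in the median over all genes, by -0.86 for MT_Fe_Ov and by -0.95 for WT_Fe_Ov at D30. At D120 this median shift is -0.37 and -0.32. A fold change from the fit therefore exceeds the ratio of the FPKM values at D30, and both are given below. The p-values measure the spread between the libraries of a group.

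The catalytic writer mettl3 was highest in the D30 ovaries. At D10 it had 4.90, 6.66 and 8.11 FPKM in MT_Fe_Ov, 8.19, 8.74 and 9.13 FPKM in WT_Fe_Ov and 4.77, 10.4 and 18.1 FPKM in WT_Ma_Te. The testis libraries enclosed both ovary groups, and replicate 3 of WT_Ma_Te was the highest of all. At D30 the values were 22.2, 28.2 and 18.5 FPKM in MT_Fe_Ov, 20.1, 16.4 and 18.3 FPKM in WT_Fe_Ov and 16.9, 12.8 and 16.0 FPKM in WT_Ma_Te. All MT_Fe_Ov libraries lay above the testis, while replicate 2 of WT_Fe_Ov lay within it. At D120 they were 10.3, 10.1 and 10.7 FPKM in MT_Fe_Ov, 10.4, 8.62 and 11.7 FPKM in WT_Fe_Ov and 19.3, 16.6 and 17.6 FPKM in WT_Ma_Te. Here every testis library was above every ovary library, so the order of the D30 means was turned round.

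The reader ythdf2 had a sharper maximum at D30, in testis as in ovary. At D10 it had 15.9, 16.7 and 16.9 FPKM in MT_Fe_Ov, 15.1, 13.5 and 14.2 FPKM in WT_Fe_Ov and 19.2, 8.64 and 12.9 FPKM in WT_Ma_Te. Each ovary group was narrow, and the testis libraries spread around both. At D30 it had 90.5, 73.6 and 91.4 FPKM in MT_Fe_Ov, 72.2, 78.2 and 76.5 FPKM in WT_Fe_Ov and 50.0, 48.9 and 50.7 FPKM in WT_Ma_Te. All 6 ovary libraries were above all 3 testis libraries. At D120 the values were 23.7, 21.9 and 25.4 FPKM in MT_Fe_Ov, 20.1, 26.3 and 21.2 FPKM in WT_Fe_Ov and 21.5, 20.6 and 19.1 FPKM in WT_Ma_Te. MT_Fe_Ov lay just above the testis and WT_Fe_Ov overlapped it.

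**Figure D1:**
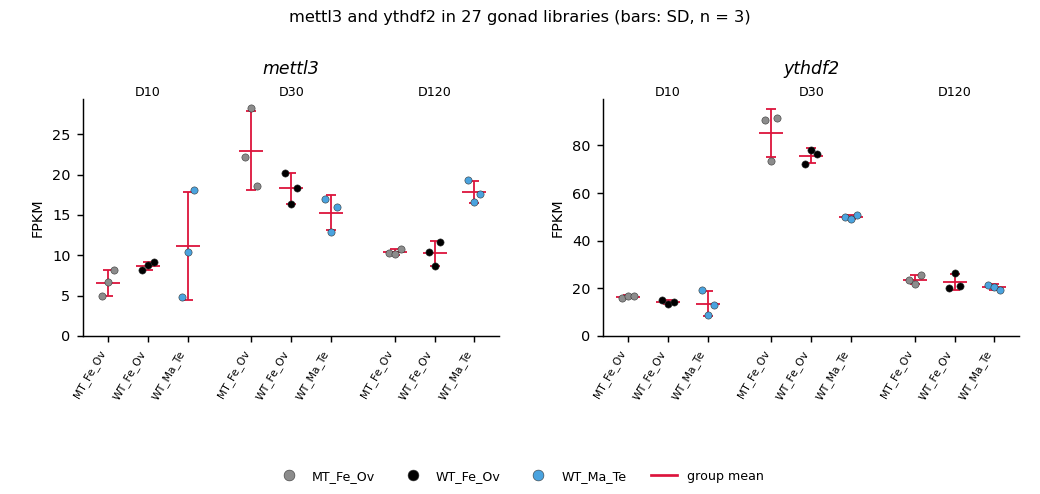
FPKM of mettl3 (left) and ythdf2 (right) in each of the 27 libraries, grouped by stage and, within a stage, by MT_Fe_Ov, WT_Fe_Ov and WT_Ma_Te; points are libraries, and red marks are group means with bars of 1 SD (n = 3). The ythdf2 libraries reached 72.2 to 91.4 FPKM in the D30 ovaries, against 48.9 to 50.7 FPKM in the D30 testes, and mettl3 at D120 was 8.62 to 11.7 FPKM in ovaries, against 16.6 to 19.3 FPKM in testes.

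Ordered by group mean, mettl3 went from D30 MT_Fe_Ov (23.0 ± 4.88 FPKM, SD, n = 3) through D30 WT_Fe_Ov (18.3 ± 1.89), D120 WT_Ma_Te (17.8 ± 1.37), D30 WT_Ma_Te (15.3 ± 2.14), D10 WT_Ma_Te (11.1 ± 6.71), D120 MT_Fe_Ov (10.4 ± 0.331), D120 WT_Fe_Ov (10.2 ± 1.55) and D10 WT_Fe_Ov (8.69 ± 0.472) to D10 MT_Fe_Ov (6.56 ± 1.60). Libraries of neighbouring groups overlapped at every step of this order but the last. For ythdf2 the order was D30 MT_Fe_Ov (85.2 ± 10.1 FPKM), D30 WT_Fe_Ov (75.6 ± 3.08), D30 WT_Ma_Te (49.9 ± 0.881), D120 MT_Fe_Ov (23.7 ± 1.74), D120 WT_Fe_Ov (22.5 ± 3.30), D120 WT_Ma_Te (20.4 ± 1.19), D10 MT_Fe_Ov (16.5 ± 0.501), D10 WT_Fe_Ov (14.3 ± 0.804) and D10 WT_Ma_Te (13.6 ± 5.32). Neighbouring groups of different stages did not overlap, although the highest D10 testis library (19.2 FPKM) reached the lowest D120 testis library (19.1 FPKM). With the libraries rescaled by TMM, the D30 means of mettl3 became 30.1 in MT_Fe_Ov, 23.1 in WT_Fe_Ov and 10.2 in WT_Ma_Te, and those of ythdf2 became 112, 95.6 and 33.4. The FPKM gap between ovary and testis at D30 is thus narrower than the rescaled one. In FPKM, the highest group mean was 3.50 times the lowest for mettl3 and 6.27 times for ythdf2.

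Of the 9 genes, 4 were called in MT_Fe_Ov against WT_Ma_Te at D30, 3 higher and 1 lower, where 52.7% of all genes tested were called (19.2% higher and 33.5% lower). In WT_Fe_Ov against WT_Ma_Te at that stage 5 of 9 were called, 4 higher and 1 lower, beside 57.7% of all genes (22.2% higher and 35.6% lower). In number the calls were near the background. The median log2 fold change of the 9 genes was 0.76 in MT_Fe_Ov and 0.93 in WT_Fe_Ov, beside -0.75 and -0.56 over all genes. Here and below, all genes include those with few reads, while the 9 genes lay at percentiles 63.5 to 93.7 of mean FPKM. The sets compared are thus not matched for level. For mettl3 the log2 fold change was 1.45 (SE 0.19, adjusted p = 1.7e-04) in MT_Fe_Ov and 1.22 (SE 0.12, adjusted p = 1.1e-08) in WT_Fe_Ov, both over WT_Ma_Te. With library totals these became 0.59 and 0.26, which are below the fold threshold. For ythdf2 the values were 1.64 (SE 0.14, adjusted p = 1.7e-05) in MT_Fe_Ov and 1.56 (SE 0.07, adjusted p = 1.1e-13) in WT_Fe_Ov, and 0.77 and 0.60 with library totals. The direction was thus the same under both scalings, while the size, and with it the call, depended on the scaling.

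At D120, 4 of 9 genes were called in MT_Fe_Ov against WT_Ma_Te, 1 higher (igf2bp3) and 3 lower (wtap, ythdc2 and alkbh5), beside 54.2% of all genes (24.1% higher and 30.1% lower). The calls in WT_Fe_Ov against WT_Ma_Te were of the same 4 genes in the same directions, beside 53.3% of all genes (23.6% higher and 29.6% lower). The medians of the 9 genes were -0.41 and -0.47, beside -0.30 and -0.31 over all genes. Neither mettl3 nor ythdf2 was among the calls. The log2 fold change of mettl3 was -0.41 (SE 0.10, adjusted p = 0.00518) for MT_Fe_Ov and -0.47 (SE 0.16, adjusted p = 0.0246) for WT_Fe_Ov, and that of ythdf2 was 0.58 (SE 0.08, adjusted p = 9.9e-05) and 0.46 (SE 0.12, adjusted p = 0.00527). All 4 values passed the p threshold but not the fold threshold. With library totals mettl3 became -0.78 (adjusted p = 7.2e-05) in MT_Fe_Ov and -0.80 (adjusted p = 7.4e-04) in WT_Fe_Ov. For ythdf2 the values became 0.21 (adjusted p = 0.0476) in MT_Fe_Ov and 0.14 (adjusted p = 0.302) in WT_Fe_Ov. That of WT_Fe_Ov no longer passed the p threshold.

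The change of the ovary to testis contrast between stages was tested in 1 fit of all 27 libraries. For mettl3 the contrast of MT_Fe_Ov moved by 2.11 (log2, adjusted p = 5.9e-05) between D10 and D30 and by -2.02 (adjusted p = 1.2e-04) between D30 and D120. For the contrast of WT_Fe_Ov the values were 1.41 (adjusted p = 0.00303) and -1.65 (adjusted p = 9.1e-04). For ythdf2 they were 1.30 (adjusted p = 1.1e-04) and -1.22 (adjusted p = 2.8e-04) with MT_Fe_Ov, and 1.36 (adjusted p = 6.3e-05) and -1.06 (adjusted p = 0.00114) with WT_Fe_Ov. Over all genes, 52% and 41.6% passed an adjusted p of 0.05 for the MT_Fe_Ov contrast at these steps, and 53.8% and 42.2% for the WT_Fe_Ov contrast. Both contrasts share the testis libraries and are therefore not separate evidence. With library totals the D30 to D120 change of mettl3 stayed past the threshold in both, while its D10 to D30 change with WT_Fe_Ov was 0.59 (adjusted p = 0.210), and it was 1.07 (adjusted p = 0.0699) without replicate 3 of each group. All 4 changes of ythdf2 were within 0.56 of 0 with library totals, at adjusted p of 0.0736 to 0.149.

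Between the ovaries, none of the 9 genes was called by edgeR or by DESeq2 in MT_Fe_Ov against WT_Fe_Ov at any stage. At D10, 1 of the 9 genes had an unadjusted p under 0.05, beside 4638 of all 24605 genes tested. Of all genes, 0.374% were called (0.232% higher and 0.142% lower). At D30, 3 of the 9 had such a p, beside 4705 of 23842 genes, and 1.68% were called (0.801% higher and 0.881% lower). At D120, 0 of the 9 had such a p, beside 1693 of 24122 genes, and 0.104% were called (0.0663% higher and 0.0373% lower). For mettl3 the log2 fold change was -0.33 (SE 0.16, adjusted p = 0.324) at D10, 0.38 (SE 0.16, adjusted p = 0.240) at D30 and 0.02 (SE 0.16, adjusted p = 0.996) at D120. The D10 libraries of the ovaries did not overlap for mettl3, with 4.90 to 8.11 FPKM in MT_Fe_Ov and 8.19 to 9.13 FPKM in WT_Fe_Ov, or for ythdf2, ythdc1 and ythdc2. The share of all genes that separate in this way was not counted at any stage, so no genotype difference is read from it. For ythdf2 the values were 0.30 (SE 0.11, adjusted p = 0.204), 0.24 (SE 0.14, adjusted p = 0.406) and 0.08 (SE 0.11, adjusted p = 0.928). The largest value of the 9 genes at D30 was that of wtap, 0.47 (SE 0.15, adjusted p = 0.130), with 14.1, 12.4 and 14.1 FPKM in MT_Fe_Ov and 10.7, 10.6 and 9.30 FPKM in WT_Fe_Ov, and these libraries did not overlap.

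At D10, none of the 9 was called by edgeR or by DESeq2 in either ovary against WT_Ma_Te. For MT_Fe_Ov, 0.11% of all genes were called, and 0 of the 9 had an unadjusted p under 0.05, beside 3990 of 24536 genes. For WT_Fe_Ov, 0.00814% were called, and 1 of the 9, ythdc2, had such a p, beside 1870 of 24562 genes. The log2 fold change of mettl3 in WT_Fe_Ov over WT_Ma_Te was -0.30 (SE 0.42), and it was 0.13 without replicate 3 of WT_Ma_Te. That of ythdf2 was 0.11 (SE 0.29), and it was -0.08 without replicate 2 of WT_Ma_Te. The direction of both therefore rested on a single testis library. The exception to overlapping libraries was ythdc2, with 0.212 to 0.354 FPKM in WT_Fe_Ov and 0.0356 to 0.0997 FPKM in WT_Ma_Te (log2 fold change 1.97, SE 0.62, adjusted p = 0.650). Its pooled counts of 47 and 9 gave a ratio of 3.74 after division by the library totals (95% exact interval 1.81 to 8.67, counting error only), and it was called in 1 fit of all 27 libraries. Its counts in the testis libraries were 6, 2 and 1. How many of all genes separate in this way, or are called in that fit, was not counted. No difference is therefore read from these values.

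Within each gonad, D30 stood apart from D10 for most of the genes. In WT_Fe_Ov all 9 genes were called between D10 and D30, 7 higher and 2 lower at D30, where 67.8% of all genes were called (29% higher and 38.8% lower). In MT_Fe_Ov 8 of 9 were called, 7 higher and 1 lower, beside 62.1% (23.7% higher and 38.4% lower). In WT_Ma_Te 6 of 9 were called, 4 higher and 2 lower, beside 46.7% (23% higher and 23.7% lower). The level of mettl3 at D30 over D10 had a log2 fold change of 1.96 (SE 0.24, adjusted p = 9.3e-05) in MT_Fe_Ov and 1.53 (SE 0.11, adjusted p = 8.6e-07) in WT_Fe_Ov. In WT_Ma_Te it was 0.08 (SE 0.42, adjusted p = 0.887), which was -0.29 without replicate 1 of the D10 testis and at most 0.53 without another library. The value for ythdf2 was 2.51 (SE 0.18, adjusted p = 4.7e-06) in MT_Fe_Ov, 2.86 (SE 0.08, adjusted p = 3.0e-09) in WT_Fe_Ov and 1.47 (SE 0.29, adjusted p = 0.00338) in WT_Ma_Te. Thus ythdf2 rose in all 3 gonads and mettl3 in the ovaries, from D10 samples that held other tissue as well.

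Between D30 and D120 the calls were 0 higher and 4 lower of 9 genes in MT_Fe_Ov, beside 17.4% of all genes (8.66% higher and 8.75% lower). They were 0 higher and 3 lower in WT_Fe_Ov, beside 21.2% (12.3% higher and 8.86% lower), and 1 higher and 1 lower in WT_Ma_Te, beside 39.1% (17.8% higher and 21.3% lower). In MT_Fe_Ov mettl3 fell by 1.37 (log2, SE 0.17, adjusted p = 5.3e-04). In WT_Fe_Ov its log2 fold change was -0.99 (SE 0.15, adjusted p = 3.1e-04), just short of the fold threshold, and it was -1.07, -1.01 and -1.13 without replicate 2 of D30 and replicates 1 and 3 of D120. In WT_Ma_Te it was 0.64 (SE 0.12, adjusted p = 5.4e-04), not called. The level of ythdf2 fell by 2.08 (SE 0.14, adjusted p = 3.2e-05) in MT_Fe_Ov and by 1.90 (SE 0.10, adjusted p = 3.4e-07) in WT_Fe_Ov. In WT_Ma_Te its value was -0.87 (SE 0.08, adjusted p = 1.4e-06) and was called only with library totals, at -1.29.

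The RNA-binding subunit mettl14 had group means of 10.9 to 14.1 FPKM at D10, 23.5 to 25.4 FPKM at D30 and 25.9 to 31.8 FPKM at D120. Like mettl3, it was called higher at D30 over D10 in MT_Fe_Ov (log2 fold change 1.26) and WT_Fe_Ov (1.64), and not in WT_Ma_Te (0.43), and its ovary to testis contrast moved with the same signs between stages. It was called in neither ovary to testis comparison at D30 or D120. The sign of its log2 fold change at D30, 0.76 in MT_Fe_Ov and 0.93 in WT_Fe_Ov over WT_Ma_Te, turned to -0.11 and -0.02 with library totals. With the size factors of DESeq2 in edgeR the D30 values were 0.75 in MT_Fe_Ov, not called, and 1.02 (adjusted p = 2.6e-09) in WT_Fe_Ov, which is called. At D120 all testis libraries (30.2 to 34.5 FPKM) lay above all ovary libraries, while the fitted log2 fold change was 0.11 in MT_Fe_Ov and 0.03 in WT_Fe_Ov and turned to -0.26 and -0.30 with library totals. Between D30 and D120 mettl14 was not called in either ovary (log2 fold change -0.06 in MT_Fe_Ov and -0.10 in WT_Fe_Ov, above 0 with library totals), with 25.3, 25.8 and 28.6 FPKM in MT_Fe_Ov at D120 and 25.2, 23.0 and 29.5 FPKM in WT_Fe_Ov. The ovary ranges at D30, 21.0 to 26.4 FPKM in MT_Fe_Ov and 24.0 to 26.6 FPKM in WT_Fe_Ov, overlapped those at D120.

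The targeting subunit wtap had its higher level in the testis. At D30 it had 33.2, 36.2 and 31.8 FPKM in WT_Ma_Te, above the ovary values given above. At D120 it had 7.35, 9.27 and 8.49 FPKM in MT_Fe_Ov, 7.57, 10.0 and 7.54 FPKM in WT_Fe_Ov and 29.2, 27.6 and 27.3 FPKM in WT_Ma_Te. No ovary library reached the testis at either stage, whereas at D10 the ranges overlapped, with 24.5 to 28.3 FPKM in MT_Fe_Ov, 27.3 to 33.9 FPKM in WT_Fe_Ov and 26.7 to 43.0 FPKM in WT_Ma_Te. The D120 log2 fold change over WT_Ma_Te was -1.37 (SE 0.11, adjusted p = 1.3e-06) for MT_Fe_Ov and -1.43 (SE 0.14, adjusted p = 3.8e-06) for WT_Fe_Ov. At D30 it was -0.45 (SE 0.14) and -0.77 (SE 0.10), short of the fold threshold, and -1.31 and -1.72 with library totals, which are called.

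Ratios within a library do not depend on how libraries are scaled. They were chosen after the values were seen and are given with no test. For 1 unit of mettl3, wtap had 0.613 ± 0.162 in MT_Fe_Ov, 0.562 ± 0.0736 in WT_Fe_Ov and 2.25 ± 0.487 in WT_Ma_Te at D30 (ratio of FPKM, SD, n = 3). At D120 the ratio was 0.808 ± 0.101, 0.845 ± 0.279 and 1.58 ± 0.0787 in the same groups. At D10 it was 4.13 ± 0.785, 3.43 ± 0.444 and 3.73 ± 1.67, so wtap exceeded mettl3 in every D10 library and in the later testes, and was below it in all D30 ovary libraries. The ratio of mettl3 to mettl14 was 0.392 ± 0.0154 in MT_Fe_Ov, 0.395 ± 0.0198 in WT_Fe_Ov and 0.562 ± 0.0610 in WT_Ma_Te at D120, without overlap between ovary and testis. At D30 it was 0.994 ± 0.304 in MT_Fe_Ov, 0.731 ± 0.0499 in WT_Fe_Ov and 0.602 ± 0.0838 in WT_Ma_Te, the other way round.

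**Figure D2:**
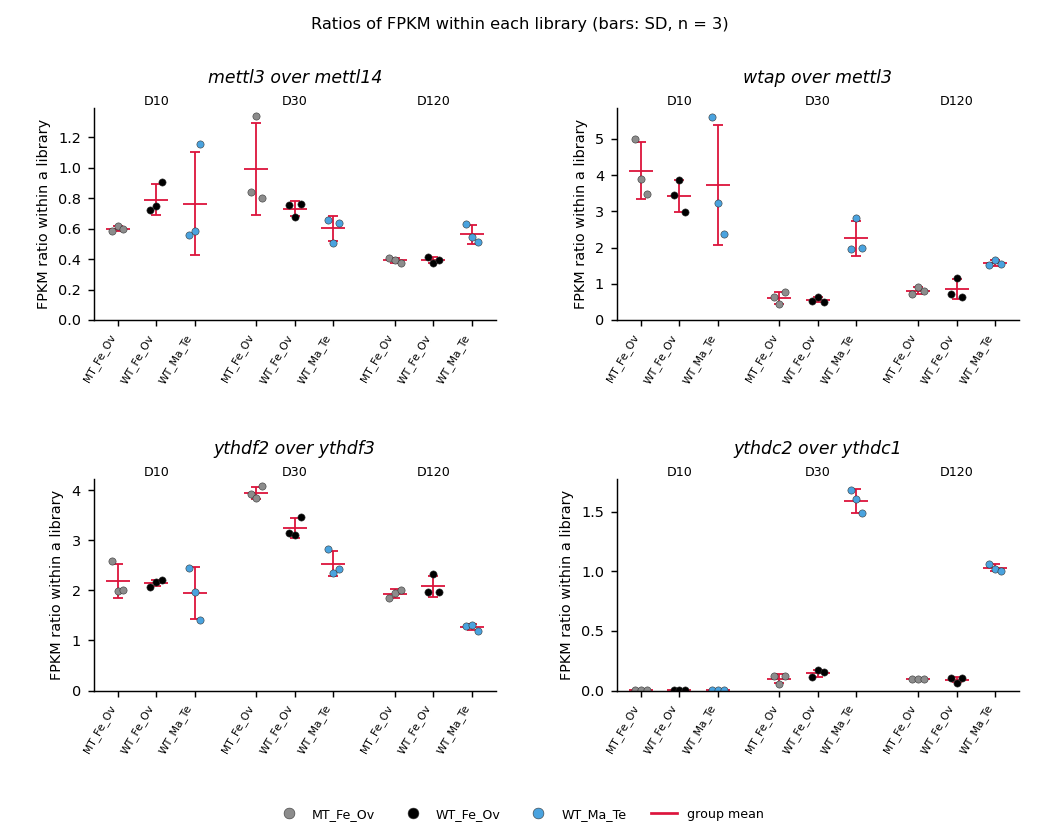
Ratios of FPKM within each of the 27 libraries for mettl3 over mettl14, wtap over mettl3, ythdf2 over ythdf3 and ythdc2 over ythdc1, by stage and group; points are libraries, and red marks are group means with bars of 1 SD (n = 3). The wtap over mettl3 ratio averaged 0.613 in MT_Fe_Ov and 0.562 in WT_Fe_Ov at D30, against 2.25 in WT_Ma_Te, and the ythdc2 over ythdc1 ratio averaged 0.0985 in MT_Fe_Ov and 0.145 in WT_Fe_Ov at D30, against 1.59 in WT_Ma_Te.

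The eraser alkbh5 reached its highest level in the D120 testis. In the testis samples alkbh5 was higher at each later stage, although those of D10 held other tissue as well. It had 22.9, 22.6 and 19.7 FPKM in WT_Ma_Te at D10, 81.2, 77.6 and 85.5 FPKM at D30 and 162, 156 and 159 FPKM at D120. The log2 fold change was 1.48 (SE 0.22, adjusted p = 8.5e-04) at D30 over D10 and 1.38 (SE 0.07, adjusted p = 5.1e-09) at D120 over D30, and the second step was 0.97 with library totals. In the ovaries alkbh5 was 22.4 to 23.0 FPKM in MT_Fe_Ov and 21.4 to 28.4 FPKM in WT_Fe_Ov at D10. It was called higher at D30 over D10 in both ovaries as well. The ovary values were 47.0 to 55.2 FPKM in MT_Fe_Ov and 60.3 to 62.4 FPKM in WT_Fe_Ov at D30, and 48.9 to 50.9 and 42.3 to 54.8 FPKM at D120. The D120 ovary values were below the testis by a log2 fold change of -1.31 (SE 0.07, adjusted p = 4.5e-08) for MT_Fe_Ov and -1.41 (SE 0.11, adjusted p = 7.3e-07) for WT_Fe_Ov. At D30 the log2 fold change was 0.23 in MT_Fe_Ov and 0.55 in WT_Fe_Ov with TMM but -0.64 and -0.41 with library totals, so no direction is given for that stage.

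The other eraser, fto, was measured beside alkbh5. It averaged 1.48 ± 0.294 FPKM in MT_Fe_Ov, 1.79 ± 0.0690 FPKM in WT_Fe_Ov and 17.1 ± 1.54 FPKM in WT_Ma_Te at D30, and 1.31 ± 0.122, 1.39 ± 0.463 and 11.7 ± 0.925 FPKM at D120. It was lower in the ovaries at both stages, with log2 fold changes over WT_Ma_Te of -2.66 (SE 0.22) in MT_Fe_Ov and -2.30 (SE 0.12) in WT_Fe_Ov at D30 and of -2.79 (SE 0.14) and -2.75 (SE 0.22) at D120. Both erasers, and the writer subunit wtap, were thus called lower in the D120 ovary than in the D120 testis. Of all genes, 30.1% were called lower in MT_Fe_Ov and 29.6% in WT_Fe_Ov in these comparisons.

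The closest relative of ythdf2 in the tables, ythdf3, had the same maximum at D30 in FPKM, with less difference between the gonads. In the testis the sign of its D120 over D30 log2 fold change differed between the scalings, and it was not called. It had 23.1, 19.1 and 22.4 FPKM in MT_Fe_Ov, 23.0, 25.2 and 22.1 FPKM in WT_Fe_Ov and 17.7, 20.9 and 20.8 FPKM in WT_Ma_Te at D30. At D120 it was 11.2 to 12.8 FPKM in MT_Fe_Ov, 10.3 to 11.3 FPKM in WT_Fe_Ov and 15.7 to 16.7 FPKM in WT_Ma_Te. Neither ovary range overlapped that of the testis, while the fitted log2 fold change over WT_Ma_Te was -0.03 in MT_Fe_Ov and -0.26 in WT_Fe_Ov, not called. It was called at D30 in WT_Fe_Ov over WT_Ma_Te (log2 fold change 1.20, SE 0.09, adjusted p = 2.4e-10; 0.24 with library totals) but not in MT_Fe_Ov (0.99, SE 0.14, adjusted p = 2.7e-04). In the testis its D30 over D10 call (1.08, SE 0.27, adjusted p = 0.00945) was lost without replicate 2 of the D10 testis, at 0.91. Within libraries, ythdf2 was 3.95 ± 0.12 times ythdf3 in MT_Fe_Ov, 3.24 ± 0.20 times in WT_Fe_Ov and 2.53 ± 0.256 times in WT_Ma_Te at D30, and 1.93 ± 0.0836, 2.08 ± 0.211 and 1.26 ± 0.0632 times at D120. The ovary libraries were above the testis libraries in this ratio at both stages.

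The nuclear reader ythdc1 was highest at D10. It had 48.0 to 52.8 FPKM in MT_Fe_Ov, 55.4 to 67.2 FPKM in WT_Fe_Ov and 49.3 to 72.7 FPKM in WT_Ma_Te at that stage. At D30 it was lower in all 3 groups than in the D10 samples, which held other tissue as well. The difference was 1.40 (log2, SE 0.16, adjusted p = 7.2e-05) in MT_Fe_Ov, 1.60 (SE 0.09, adjusted p = 1.4e-07) in WT_Fe_Ov and 1.86 (SE 0.26, adjusted p = 5.7e-04) in WT_Ma_Te. At D120 it had 16.5 to 17.7 FPKM in MT_Fe_Ov, 15 to 17.2 FPKM in WT_Fe_Ov and 33.8 to 37.1 FPKM in WT_Ma_Te, with log2 fold changes over the testis of -0.68 (SE 0.08) and -0.79 (SE 0.11) that are called only with library totals, at -1.05 and -1.11. The D30 sign in the ovary to testis comparisons was positive with TMM (0.41 and 0.28) and negative with library totals (-0.46 and -0.68).

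The meiotic reader ythdc2 was the gene with the widest range. At D10 it had 6, 10 and 14 counts in MT_Fe_Ov, 21, 13 and 13 counts in WT_Fe_Ov and 6, 2 and 1 counts in WT_Ma_Te, so that every D10 level rests on few reads. At D30 it had 1.98, 0.906 and 2.20 FPKM in MT_Fe_Ov, 1.72, 2.43 and 2.24 FPKM in WT_Fe_Ov and 40.8, 34.5 and 37.3 FPKM in WT_Ma_Te. At D120 the values were 1.57, 1.70 and 1.65 FPKM, 1.62, 1.10 and 1.75 FPKM, and 39.4, 35.3 and 34.0 FPKM in the same groups. No ovary library came near a testis library at either stage. The log2 fold change over WT_Ma_Te was -3.58 (SE 0.28, adjusted p = 9.6e-06) in MT_Fe_Ov and -3.18 (SE 0.11, adjusted p = 2.3e-15) in WT_Fe_Ov at D30, and -4.10 (SE 0.10, adjusted p = 1.7e-10) and -4.28 (SE 0.18, adjusted p = 6.0e-09) at D120.

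The ythdc2 counts of the 3 testis libraries summed to 9591 at D30 and 9 at D10, a ratio of 523 after division by the library totals (95% exact interval 275 to 1143, counting error only). The same ratio was 12.1 (8.24 to 18.4) in MT_Fe_Ov and 7.90 (5.85 to 10.9) in WT_Fe_Ov. In the testis, germ cell genes (6 found of 6 listed) summed to 6.31 to 18.9 CPM at D10, 3032 to 3067 CPM at D30 and 1702 to 2016 CPM at D120. They rose in the ovaries as well, from 16.3 to 22.5 CPM at D10 to 1300 to 1634 CPM at D30 in MT_Fe_Ov. In WT_Fe_Ov they went from 21.1 to 53.6 CPM to 1368 to 1429 CPM. The part of germ cells in the ythdc2 levels was not tested. Spermatocyte and spermatid genes (7 found of 8 listed) summed to 65.4 to 118 CPM in the D10 testis, 430 to 475 CPM in the D30 testis and 1867 to 2060 CPM in the D120 testis. The same genes summed to 41.1 to 48.6 CPM in MT_Fe_Ov and 46.9 to 68.3 CPM in WT_Fe_Ov at D10, and to 15.6 to 29.6 CPM in the later ovaries. Their D10 level is thus not particular to the testis. In the testis, ythdc2 at D120 over D30 had a log2 fold change of 0.37 (SE 0.09, adjusted p = 0.00333), which is not called and is below 0 with library totals. Relative to ythdc1 in the same library, ythdc2 stood at 0.0985 ± 0.0388 in MT_Fe_Ov, 0.145 ± 0.0286 in WT_Fe_Ov and 1.59 ± 0.0998 in WT_Ma_Te at D30.

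The genes of the partners of YTHDC2 known from the mouse were measured as well. Of meioc, rbm46 and the exonuclease xrn1, 3 of 3 were called lower in MT_Fe_Ov and in WT_Fe_Ov than in WT_Ma_Te at D120, where 30.1% and 29.6% of all genes were called lower. The D120 level of meioc was 1.31 ± 0.357 FPKM in MT_Fe_Ov, 1.15 ± 0.220 FPKM in WT_Fe_Ov and 113 ± 3.91 FPKM in WT_Ma_Te, and that of the RNA-binding gene rbm46 was 7.13 ± 0.537, 6.57 ± 0.301 and 98.6 ± 8.29 FPKM. At D30, meioc had 2.90 ± 1.58 FPKM in MT_Fe_Ov, 3.33 ± 0.901 FPKM in WT_Fe_Ov and 49.2 ± 1.02 FPKM in WT_Ma_Te. At D30, 1 of the 3 was called higher (xrn1) and 2 lower in MT_Fe_Ov than in WT_Ma_Te, and 0 higher and 1 lower (meioc) in WT_Fe_Ov. Over all genes, 19.2% were called higher and 33.5% lower in MT_Fe_Ov at D30, and 22.2% and 35.6% in WT_Fe_Ov. Over the list the median log2 fold change at D120 was -3.42 in MT_Fe_Ov and -3.59 in WT_Fe_Ov, with medians of -0.30 and -0.31 over all genes.

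The stabilising reader igf2bp3 ran opposite to ythdc2 between ovary and testis at D30 and D120, while both were called higher at D30 over D10 in the ovaries. In WT_Ma_Te igf2bp3 was called lower at D30 over D10, but with library totals its log2 fold change there was -0.82, which is not called. At D30 it had 36.2, 23.7 and 46.2 FPKM in MT_Fe_Ov, 32.7, 31.4 and 32.9 FPKM in WT_Fe_Ov and 5.81, 4.99 and 4.42 FPKM in WT_Ma_Te. At D120 it had 14.2, 12.9 and 14.7 FPKM in MT_Fe_Ov, 12.3, 14.9 and 13 FPKM in WT_Fe_Ov and 0.756, 0.603 and 0.439 FPKM in WT_Ma_Te. Every ovary library exceeded every testis library at both stages, and the 3 D30 MT_Fe_Ov libraries differed widely. The log2 fold change over WT_Ma_Te was 3.67 (SE 0.27, adjusted p = 5.9e-06) in MT_Fe_Ov and 3.62 (SE 0.10, adjusted p = 6.2e-17) in WT_Fe_Ov at D30, and 4.89 (SE 0.17, adjusted p = 1.2e-09) and 4.78 (SE 0.20, adjusted p = 5.0e-09) at D120. From D30 to D120 it fell in each gonad, by 1.58 (SE 0.23) in MT_Fe_Ov, 1.43 (SE 0.09) in WT_Fe_Ov and 2.65 (SE 0.23) in WT_Ma_Te. At D10 it had group means of 8.96 to 11.5 FPKM and was not called.

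**Figure D3:**
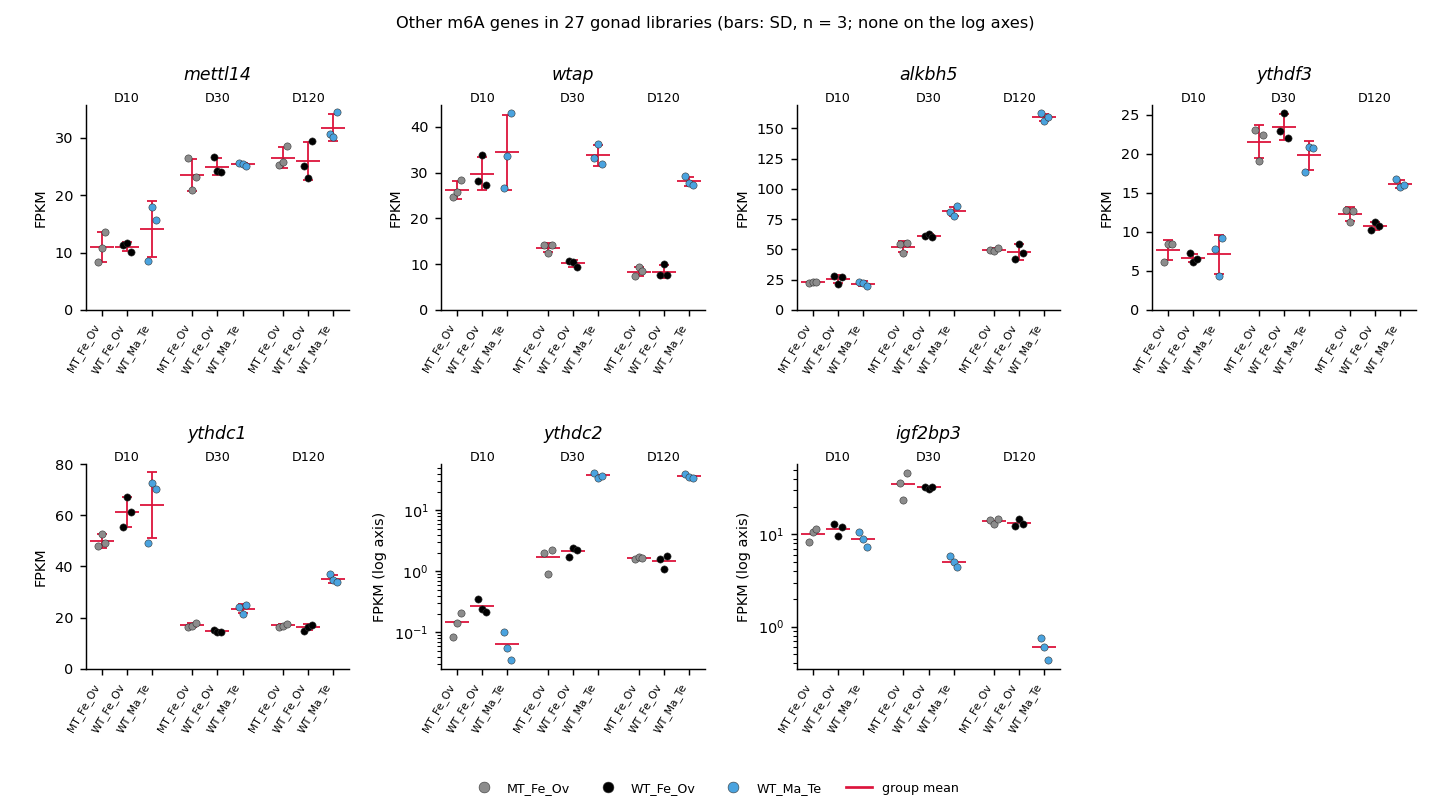
FPKM of mettl14, wtap, alkbh5, ythdf3, ythdc1, ythdc2 and igf2bp3 in each of the 27 libraries by stage and group, with log axes for ythdc2 and igf2bp3; points are libraries, red marks are group means, and bars are 1 SD (n = 3) on the linear axes. At D120 the testis had the higher level of ythdc2 (34.0 to 39.4 FPKM) and alkbh5 (156 to 162 FPKM), and the ovary that of igf2bp3.

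**Figure D4:**
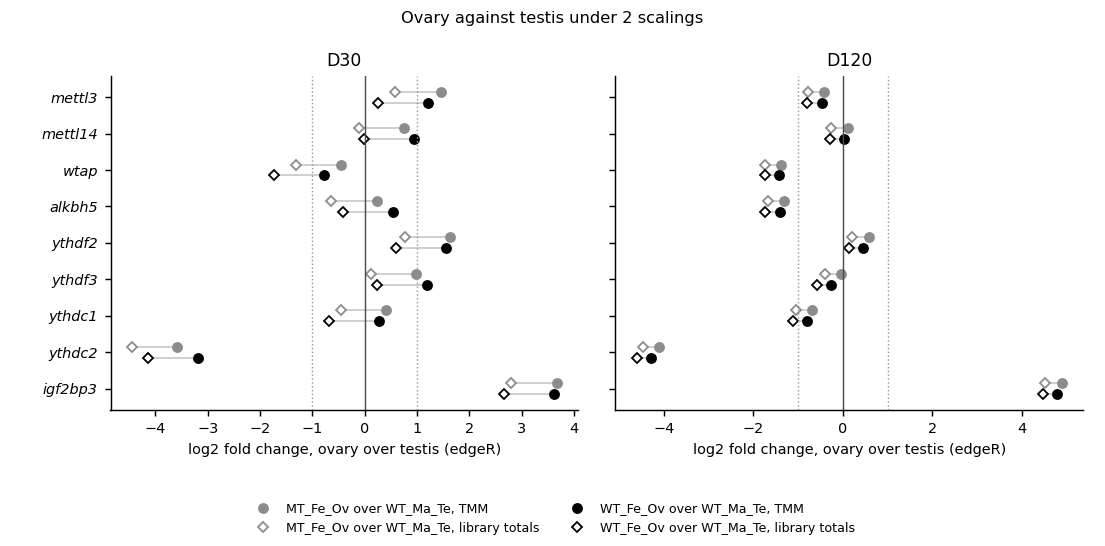
The log2 fold change of ovary over testis from edgeR for the 9 genes at D30 (left) and D120 (right), for MT_Fe_Ov (grey) and WT_Fe_Ov (black), with TMM scaling (filled circles) and with library totals (open diamonds); dotted lines mark the fold threshold of 1 in each direction. Library totals shift the points to the left, which at D30 takes mettl3 and ythdf2 below the threshold and moves mettl14, ythdc1 and alkbh5 across 0, while ythdc2 and igf2bp3 stay far from it.

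The wider pathway was counted from lists of other m6A genes. Of 9 other writers found, 3 were called higher and 0 lower in the ovary at D30, for MT_Fe_Ov as for WT_Fe_Ov against WT_Ma_Te, namely zcchc4, rbm15b and mettl16, beside 19.2% and 22.2% of all genes called higher and 33.5% and 35.6% called lower. The gene zcchc4, a methyltransferase of ribosomal RNA, was also higher in the D120 ovary, with 47.2 ± 4.29 FPKM in MT_Fe_Ov, 39.8 ± 5.20 FPKM in WT_Fe_Ov and 7.58 ± 0.278 FPKM in WT_Ma_Te. At D120, 2 of the 9 were called higher (zcchc4 and trmt112) and 1 lower in both ovaries, beside 24.1% and 23.6% of all genes called higher and 30.1% and 29.6% called lower. The lower one was virma, the scaffold subunit of the mRNA writer complex. It had 8.39 ± 0.310 FPKM in MT_Fe_Ov, 8.20 ± 0.226 FPKM in WT_Fe_Ov and 23.6 ± 0.525 FPKM in WT_Ma_Te, the same direction as wtap. The list median at D30 was 0.48 in MT_Fe_Ov and 0.56 in WT_Fe_Ov (log2 fold change over WT_Ma_Te), beside -0.75 and -0.56 over all genes.

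Of 8 other readers found, 1 was called higher and 1 lower in MT_Fe_Ov than in WT_Ma_Te at D30, and 2 higher and 1 lower in WT_Fe_Ov, beside the same shares of all genes (19.2% higher and 33.5% lower, and 22.2% and 35.6%). The lower one was igf2bp2, with 1.18 ± 0.232 FPKM in MT_Fe_Ov, 1.55 ± 0.0399 FPKM in WT_Fe_Ov and 17.4 ± 0.806 FPKM in WT_Ma_Te, opposite to its relative igf2bp3. At D120, igf2bp2 was at 1.81 ± 0.382, 1.97 ± 0.862 and 2.92 ± 0.377 FPKM and was not called. Of the 8 readers, 1 was called higher (lrpprc) and 2 lower (prrc2a and prrc2c) in both ovaries at that stage. Over all genes, 24.1% were called higher and 30.1% lower in MT_Fe_Ov there, and 23.6% and 29.6% in WT_Fe_Ov. The list median was 0.39 in MT_Fe_Ov and 0.62 in WT_Fe_Ov at D30 and -0.29 in both at D120, beside the medians over all genes given above.

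Of 19 deadenylation and decapping genes found, the machinery that acts after YTHDF2, 5 were called higher and 4 lower in MT_Fe_Ov than in WT_Ma_Te at D30, and 6 and 4 in WT_Fe_Ov, beside 19.2% of all genes higher and 33.5% lower, and 22.2% and 35.6%. At D120 the counts were 3 higher and 6 lower in MT_Fe_Ov and 2 and 6 in WT_Fe_Ov, beside 24.1% and 30.1%, and 23.6% and 29.6%. The list median was 0.24 in MT_Fe_Ov and 0.23 in WT_Fe_Ov at D30, beside -0.75 and -0.56 over all genes, and -0.19 and -0.38 at D120, beside -0.30 and -0.31. The helicase ddx6, a decapping activator, was among the higher ones at D30 and among the lower ones at D120. It had 57.5 ± 8.83 FPKM in MT_Fe_Ov, 45.7 ± 4.91 FPKM in WT_Fe_Ov and 24.6 ± 0.432 FPKM in WT_Ma_Te at D30, and 8.16 ± 0.636, 7.44 ± 1.62 and 29.9 ± 0.648 FPKM at D120. The CCR4-NOT subunit cnot10 was higher in the ovary at both stages, with 34.7 ± 0.572 FPKM in MT_Fe_Ov, 33.1 ± 3.21 FPKM in WT_Fe_Ov and 16.8 ± 0.820 FPKM in WT_Ma_Te at D120. Other subunits differed in direction at D120: cnot8 and cnot1 were called lower in both ovaries, and cnot4 was called higher in MT_Fe_Ov. Of the 2 methyl donor genes found, ahcy, which clears S-adenosylhomocysteine, was higher in the ovary at D30 and D120, with 106 ± 12.8 FPKM in MT_Fe_Ov, 94.5 ± 5.84 FPKM in WT_Fe_Ov and 28.8 ± 2.95 FPKM in WT_Ma_Te at D120. The other, mat2b, was called lower in both ovaries at D120.

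The genes most like mettl3 and ythdf2 were ranked by Pearson's r of log2(FPKM + 1) over the 27 libraries, among 9503 genes with a symbol other than a LOC number and a mean of at least 1 FPKM. The libraries share their stages and gonads, so r is a description. For mettl3 the 5 highest were rtel1 (r = 0.910), nkapd1 (0.903), mastl (0.900), sart3 (0.899) and atf7ip2 (0.898). For ythdf2 they were slc35b2 (0.968), xpo4 (0.962), papolg (0.958), sh3yl1 (0.958) and pias4 (0.956). With Spearman's rank correlation, 3 of the 5 named for mettl3 and 1 of the 5 named for ythdf2 stayed among the highest 5, and with FPKM rescaled by TMM 3 of the 5 for mettl3. Between mettl3 and ythdf2 themselves r was 0.657. The closest of the other genes described here was ythdf3, with r = 0.777 to mettl3 and 0.901 to ythdf2, where it ranked 42. The lowest was ythdc1, at -0.462 to mettl3 and -0.754 to ythdf2.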

How the data were processed

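Poly(A) RNA-seq of 27 gonad libraries was used. After fastp, the authors used STAR on the genome ASM223467v1 and featureCounts over exons of each gene, without strand. The deposited counts are raw counts for 26099 genes, and a second deposited table holds FPKM from DESeq2's function. Tested on the files, FPKM equals the count over library total and gene length. Because a few abundant genes can lower all others under that scaling, tests used TMM. Counts with at least 1 read over the libraries compared were tested with edgeR 4.0.16 (quasi-likelihood, Benjamini-Hochberg; limma 3.58.1, R 4.3.3), each comparison in its own 6 libraries. Differences between stages of the ovary to testis contrast used 1 fit of all 27. SE is the size of the log2 value divided by the root of the F statistic. Of the symbols, 9 had been turned into dates and are not named.

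The named genes are the 10 symbols of the choice above, those most like mettl3 and ythdf2, and up to 4 called genes per list with the largest fold changes. Other listed genes are named where a count or the opposite direction needs them, chosen after their values were seen. Genes and lists were chosen with earlier results of these data known. Both mettl3 and ythdf2 had been placed in an expression cluster made from these same libraries, so their tests are not independent of it. Alternatives were DESeq2 1.42.0 and its size factors, library totals, an adjusted p of 0.01, other filters, 1 fit of 27 libraries, the replicate number as a block and leaving out each library. Fits were tested on simulated data in which few genes were changed, as many up as down. The shift between scalings seen at D30 was not tested by it. Further work used Python 3.11.15 with pandas 2.3.3, scipy 1.17.1 and matplotlib 3.10.9. In the smallest library of 5551651 counts, a count of 3 is the floor, which covers counting error only. The sequences of these genes are not printed, since no sequence was used here.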

Additional observations from a re-analysis of the deposited data

Results flagged for a closer look

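The ovary to testis contrast differed between stages for most of the 9 genes, by a test of the difference itself in 1 edgeR fit of 27 libraries (log2, adjusted p of at most 0.05). Over all genes, 52% and 53.8% passed for the contrasts of MT_Fe_Ov and WT_Fe_Ov between D10 and D30, and 41.6% and 42.2% between D30 and D120. The contrasts of MT_Fe_Ov and WT_Fe_Ov share the testis libraries, and consecutive steps share the D30 libraries. Between D10 and D30, the contrast of MT_Fe_Ov moved up by 2.11 for mettl3, 1.30 for ythdf2, 1.07 for mettl14, 0.80 for ythdf3, 0.71 for ythdc1 and 3.45 for igf2bp3, and ythdc2 moved by -4.64. In the contrast of WT_Fe_Ov the same step was 1.41 for mettl3, 1.36 for ythdf2, 1.16 for mettl14, 1.15 for ythdf3 and 3.15 for igf2bp3, with -0.69 for wtap and -5.19 for ythdc2, whose D10 values rest on 1 to 21 counts per library.

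Between D30 and D120 the contrast of MT_Fe_Ov moved by -2.02 for mettl3, -1.22 for ythdf2, -0.81 for mettl14, -1.09 for wtap, -1.70 for alkbh5, -1.18 for ythdf3 and -1.24 for ythdc1, while igf2bp3 moved by 1.05. In the contrast of WT_Fe_Ov it moved by -1.65 for mettl3, -1.06 for ythdf2, -0.86 for mettl14, -0.62 for wtap, -1.92 for alkbh5, -1.42 for ythdf3, -1.03 for ythdc1 and -1.05 for ythdc2, and igf2bp3 moved by 1.19. The shift between TMM and library totals was larger at D30 than at D10 or D120, and the values of mettl3 and ythdf2 with library totals are nearer to 0. For the other genes only contrasts of single stages are given with library totals. With WT_Fe_Ov, mettl14 was at -0.34, -0.02 and -0.30 at D10, D30 and D120, and wtap at -1.72 and -1.74 at D30 and D120. With MT_Fe_Ov, ythdc1 was at -0.36 at D10 and -0.46 at D30, whereas igf2bp3 was at 0.18 and 2.80. Part of the listed changes thus depends on the scaling at D30.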

How the results depend on the processing

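Most values were unchanged under alternatives, 1086 of 1114. A log2 fold change counts as unchanged if it kept its direction and its side of the thresholds. Counts of called genes are also among these values, and are unchanged if they stayed near the main count, even where the genes differ. At D30 in MT_Fe_Ov against WT_Ma_Te, library totals called igf2bp3, wtap and ythdc2, whereas TMM called mettl3, ythdf2, igf2bp3 and ythdc2. The 1114 values leave out 883 values of other genes that were not called, of which 17 became called and 51 changed sign. They also leave out the genes most like mettl3 and ythdf2 and the group means of these 2 genes. Most of these means, all those at D30 among them, moved by at least 1 SD when FPKM was rescaled by TMM. With library totals, 3 of 9 genes were called in WT_Fe_Ov against WT_Ma_Te at D30, and the D30 log2 fold changes of mettl3 and ythdf2 were 0.59 and 0.77 in MT_Fe_Ov and 0.26 and 0.60 in WT_Fe_Ov. The changes of the contrast between stages were then 0.59 for mettl3 (WT_Fe_Ov, D10 to D30), 0.50 and -0.56 for ythdf2 with MT_Fe_Ov and 0.54 and -0.46 with WT_Fe_Ov, and the D120 over D30 value of ythdf2 in WT_Ma_Te was -1.29. In 1 fit of all 27 libraries, 1 gene was called in WT_Fe_Ov against WT_Ma_Te at D10, and mettl3 at D120 over D30 in WT_Fe_Ov was -1.01. The D30 over D10 value of mettl3 in WT_Ma_Te was -0.0061 with DESeq2 and -0.0025 with its size factors. Without 1 library at a time, mettl3 ranged from -0.68 to 0.13 and ythdf2 from -0.079 to 0.43 in WT_Fe_Ov over WT_Ma_Te at D10, mettl3 from -0.12 to 0.13 in MT_Fe_Ov over WT_Fe_Ov at D120, from -1.13 to -0.85 at D120 over D30 in WT_Fe_Ov and from -0.29 to 0.53 at D30 over D10 in WT_Ma_Te, and the change of its WT_Fe_Ov contrast between D10 and D30 from 1.07 to 1.74.

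Replicate numbers did not pair the samples: in none of the 15 comparisons did every same-numbered pair correlate above 0.1, nor each sample best with its own number. With the replicate number as a block, mettl3 was 1.44 in MT_Fe_Ov and 1.22 in WT_Fe_Ov over WT_Ma_Te at D30, and none of the 90 values changed its call. The main limits are the 3 libraries per group, the adjacent tissue at D10 and the uneven level of the pancreas gene cpb1 at D30. The different sequencing of the D30 testis libraries is another, and its part in the results was not tested. Further limits are D30 MT_Fe_Ov libraries of 6301347 to 10129588 counts, the scaling at D30 and low ythdc2 counts at D10.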
